A study of Mus musculus with 16 samples.

Results

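DNA replication genes were followed through a lipopolysaccharide (LPS) response in RAW264.7, an established macrophage-like line from mouse. The set holds 43 named genes of the replication machinery, its nucleotide supply, its chromatin partners and its transcriptional activator E2f1. They were chosen by gene symbol, with no measured value in the rule, though earlier results of these data were known by then. All 43 were in the table of 13832 genes, and all 43 were among the 9529 genes with enough counts to test. The study profiled cytoplasmic RNA before LPS and after 15, 30, 45, 60, 75 and 90 min and 16 h of LPS at 100 ng/ml. Each time point gave 2 libraries, with input taken from the lysate that was then digested. Input libraries held alkali-fragmented RNA, and footprint libraries held the RNA fragments that ribosomes protected from RNase I. There were 8 input and 8 footprint libraries, 1 of each per time point, with no replicate culture and no untreated culture kept to a later time among the samples analysed. Time in culture, handling and LPS therefore cannot be told apart. The p-values of changes over time measure scatter about a smooth time curve. Those of the mean ratio of footprints to input measure its scatter about a constant over the 8 time points. The early and the 16 h comparisons share the untreated library.

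DNA replication starts when the origin recognition complex, with Cdc6 and Cdt1, loads the Mcm2 to Mcm7 helicase onto origins. Cdc45 and the GINS complex then activate the helicase, and polymerases, a sliding clamp, its loader and the single-strand binding protein RPA copy the DNA. Most of these genes are textbook targets of E2F transcription factors and are transcribed around the entry into S phase. RAW264.7 cells divide continuously in culture, while LPS is known to slow macrophage proliferation.

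Of the 10 macrophage markers listed, 9 reached 10 counts in an input library, and their summed level was 3230 to 5040 CPM (counts scaled to a common library total, the usual CPM unit). The range follows Cd14, an LPS co-receptor, at 490 CPM untreated and 2380 CPM at 16 h. Without Cd14 the sum was 2740 CPM untreated, 2660 CPM at 16 h and 2560 to 2770 CPM over the libraries, with Csf1r and Lyz2 lowest at 16 h and Adgre1 and Fcgr1 highest. Mertk was at 0 in every input library. Osteoclast markers summed to 12.4 to 44.3 CPM. Fibroblast and lymphocyte markers reached at most 0.746 CPM each and epithelial markers 0.149 CPM, so their defining genes were at or near 0. Every library had between 6702930 and 6702932 counts, so the totals say nothing of the original depth. Counts of the replication genes in a library ran from 52, for E2f1, to 6226, for Rrm1. In bulk libraries such as these, fewer cells expressing a gene and less RNA per cell cannot be told apart.

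Promoter windows were available for 36 of the 43 genes, each running from 250 bases before to 50 bases after an annotated start site in RefSeq (GRCm38.p6). No window was used for Mcm4, Gmnn, Gins1, Gins2, Prim2, Pole and Rfc2. The E2f1 window began within the E2f1 coding sequence, so the sequence before its coding start was not searched. The E2F-type motifs TTTCCCGC, TTTGGCGC, TTTGCCGC and TTTCGCGC were searched on both strands. At least 1 match was present in some window of 14 of the 36 genes (38.9%). The same held for 5.22% of 7361 tested genes with a window and 2.6% of all 27025 genes with a window. Counted by window, the share was 2.26% of 32851. Some genes had several windows, and in Mcm7, Lig1 and Uhrf1 only 1 of them held a match. More than 1 match was found in 5 genes, and matches overlapped each other in Mcm5 and Mcm6. The 14 genes came from several roles: Mcm3, Mcm5, Mcm6 and Mcm7; Orc1, Cdc6 and Cdt1; Gins3; Pola1, Pold1 and Pole2; Rfc3; Lig1; and Uhrf1. The 250 bases before the start site are shown for the 4 genes with a match whose input level fell most at 16 h, 5′ to 3′ along the gene's strand, with matches in capitals.
Gins3, chr8:95633309-95633558, plus strand: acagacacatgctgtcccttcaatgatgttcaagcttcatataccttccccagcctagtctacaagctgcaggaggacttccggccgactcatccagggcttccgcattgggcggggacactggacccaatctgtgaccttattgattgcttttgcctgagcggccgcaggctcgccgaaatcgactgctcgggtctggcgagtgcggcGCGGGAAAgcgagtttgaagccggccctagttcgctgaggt
Mcm5, chr8:75109259-75109508, plus strand: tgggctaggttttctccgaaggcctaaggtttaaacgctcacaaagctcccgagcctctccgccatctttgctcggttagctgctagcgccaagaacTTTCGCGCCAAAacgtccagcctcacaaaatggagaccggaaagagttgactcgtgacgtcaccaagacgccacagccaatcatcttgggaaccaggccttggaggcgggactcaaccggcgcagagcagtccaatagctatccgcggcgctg
Mcm7, chr5:138171884-138172133, minus strand: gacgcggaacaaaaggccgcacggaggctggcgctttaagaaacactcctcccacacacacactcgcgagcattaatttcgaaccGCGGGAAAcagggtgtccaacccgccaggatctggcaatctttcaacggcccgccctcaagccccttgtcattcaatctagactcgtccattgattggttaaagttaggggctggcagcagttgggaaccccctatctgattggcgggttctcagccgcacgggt
Pola1, chrX:93632156-93632405, minus strand: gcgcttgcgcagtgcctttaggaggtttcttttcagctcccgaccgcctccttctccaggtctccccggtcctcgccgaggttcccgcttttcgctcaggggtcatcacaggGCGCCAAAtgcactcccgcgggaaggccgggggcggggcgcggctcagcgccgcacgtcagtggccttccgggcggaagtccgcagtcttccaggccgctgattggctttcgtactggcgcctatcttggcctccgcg

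The capitals in Mcm5 are 2 overlapping matches, from 153 to 142 bases before the start site. In Gins3 the match lay 41 to 34 bases before the start site, and in Pola1 138 to 131 bases before it. Mcm7 had a match 165 to 158 bases before the start site and another 16 to 23 bases after it, outside the stretch shown. A match describes the letters of a window, not a bound site.

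**Figure D1:**
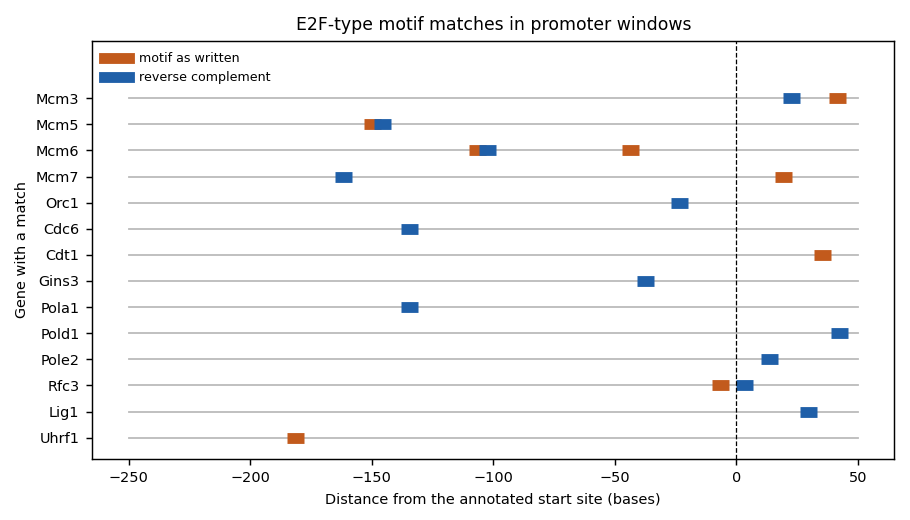
Position of E2F-type motif matches in the promoter windows of the 14 DNA replication genes that held 1. The x axis is distance from the annotated start site in bases, the grey line is the window searched, and colours give the motif's orientation. Matches lay on both sides of the start site.

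Over the first 90 min the set as a whole stayed near its untreated level. Summed over the 43 genes, input levels at 15 to 90 min were 102% to 106% of the untreated level and footprint levels 106% to 109%, both in CPM after trimmed-mean (TMM) scaling. At 16 h the summed level was 43.3% of untreated in input and 43.8% in footprints. As a share of all counts, the set took 0.744% of untreated input, 0.708% at 90 min and 0.292% at 16 h. In footprints the shares were 0.979%, 0.854% and 0.396%. At 16 h, 42 of the 43 genes were below untreated in each material, and Orc1 was above it in both.

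**Figure D2:**
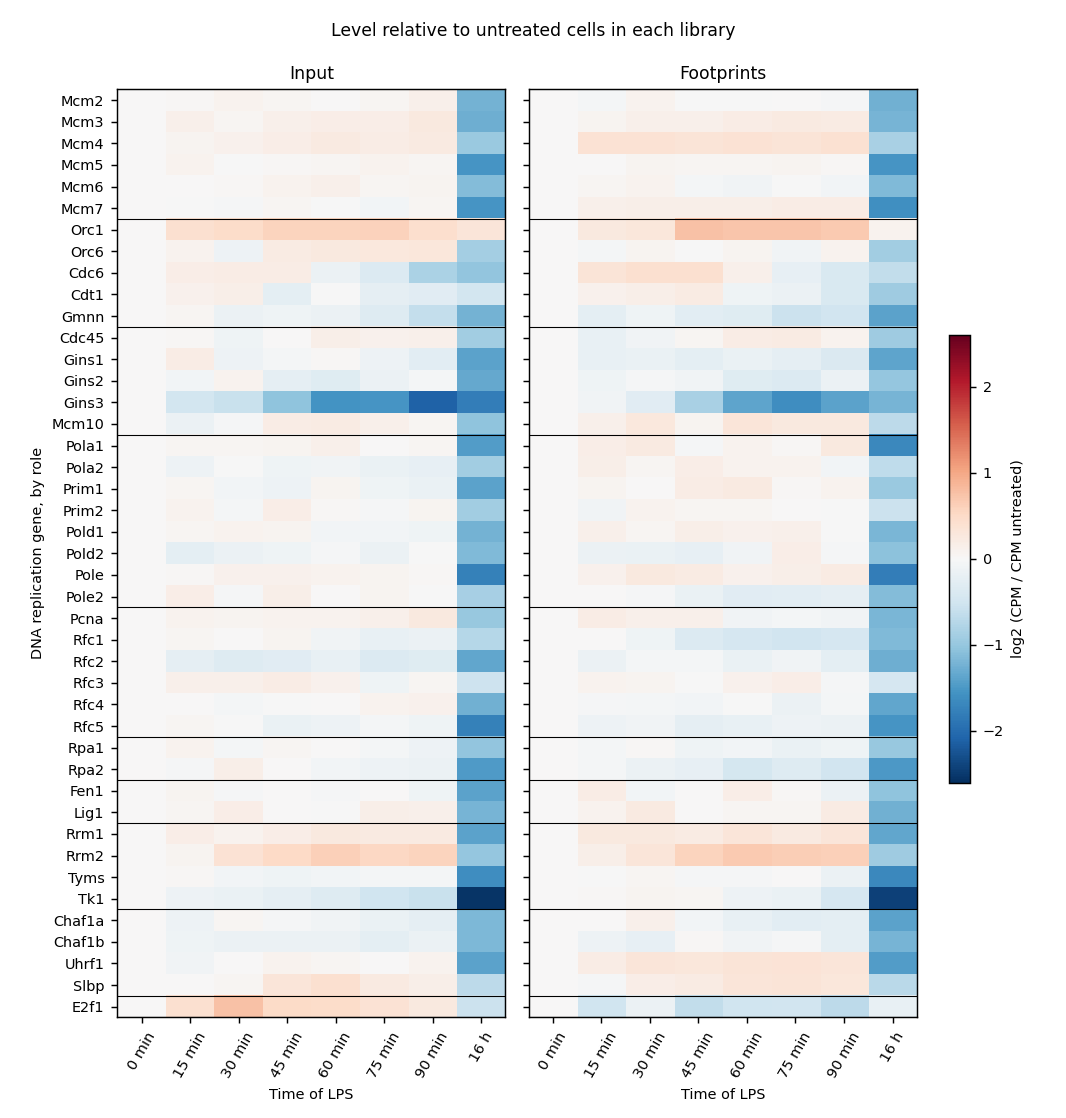
Level of each of the 43 DNA replication genes in each library, as the log2 ratio of its CPM to the untreated CPM, for input (left) and footprints (right), with genes ordered by role. Most rows are pale to 90 min and blue at 16 h. Gins3 turns blue within the first hour, and Orc1, Rrm2 and input E2f1 turn red.

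The early response was tested with edgeR's quasi-likelihood test of a linear and quadratic time curve from 0 to 90 min, with Benjamini-Hochberg adjustment over all 9529 genes and a threshold of 0.05. Its size is the largest departure of the fitted curve from 0 min, in log2 units. For input, 3 of the 43 genes rose and 4 fell, where 14.6% of all tested genes rose and 11.4% fell. In footprints, 4 rose and 7 fell, against 12.2% and 8.3% of all tested genes. Orc1 and Rrm2 rose in both materials, and Gins3, Cdc6, Gmnn and Tk1 fell in both. The median size was 0.01 in input and 0.03 in footprints, against -0.06 and -0.07 over all tested genes. With scaling to total counts alone, the split became 3 higher and 12 lower in input and 2 higher and 20 lower in footprints, and the footprints of Gmnn, Tk1, Cdt1 and Rpa2 fell by 0.75, 0.66, 0.67 and 0.76 on the log2 scale. That scaling moved the median of all genes to -0.17 and -0.32, and its calls over all genes from 1390 higher and 1088 lower to 990 and 1863 in input, and from 1160 and 791 to 739 and 2608 in footprints.

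Gins3, a subunit of the GINS complex that activates the loaded helicase, fell furthest. Its input level was 37.4 CPM in untreated cells, 27.0 at 15 min, 25.1 at 30 min, 18.1 at 45 min, 12.8 at 60 and 75 min, 8.68 at 90 min and 10.8 at 16 h. Its footprints were at 37.5, 35.4, 30.5, 20.8, 14.4, 12.2, 14.3 and 16.3 CPM in the same order. Every treated library was below the untreated one, and the level at 16 h was close to that at 90 min. The fitted change in input was -2.02 ± 0.17 (SE; edgeR adjusted p = 2.6e-05). In footprints it was -1.79 ± 0.22 (edgeR adjusted p = 0.00037). The input level at 90 min was 23.2% of untreated, with a 95% counting interval of 17.1 to 31.1%. Counts fell from 261 to 56, so counting error is part of the scatter. The other GINS subunits measured, Gins1 and Gins2, were not called in either material over 90 min.

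The licensing factors moved in opposite directions. Cdc6, the ATPase that helps load the helicase, was at 71.4 CPM in untreated input, 80.3 at 15 min, 82.0 at 30 min, 81.2 at 45 min, 64.7 at 60 min, 55.9 at 75 min, 40.2 at 90 min and 35.0 at 16 h. Its footprints were at 96.0, 121, 128, 128, 105, 82.9, 73.4 and 62.1 CPM. Cdc6 was thus above untreated to 45 min in both materials and below it from 75 min. The fitted departure at 90 min was -0.83 ± 0.091 in input (edgeR adjusted p = 5.4e-05) and -0.55 ± 0.11 among footprints (adjusted p = 0.00068). Without the 90 min library the largest footprint departure was the early rise, 0.42 (adjusted p = 0.0017), and the input change was -0.39 (adjusted p = 0.0075). With a straight line in place of the curve the footprint call was lost (-0.55, adjusted p = 0.14). Of the 29-base stretches of its coding sequence, 80.2% were unique to Cdc6 and others were shared chiefly with the predicted gene Gm9430.

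Gmnn encodes geminin, the inhibitor that keeps Cdt1 from reloading helicases. Its input level was 143, 147, 128, 132, 129, 114 and 93.3 CPM from 0 to 90 min and 61.4 CPM at 16 h. Footprints of Gmnn were at 259, 218, 241, 215, 209, 176 and 184 CPM, then 98.6 CPM at 16 h. Both series were lowest at 16 h, with the 75 and 90 min libraries below all earlier ones. The early fall was 0.55 on the log2 scale in input (-0.55 ± 0.091, edgeR adjusted p = 0.0024) and 0.49 in footprints (-0.49 ± 0.11, adjusted p = 0.02). It missed the threshold in input without the 90 min library (adjusted p = 0.091) and in footprints without the untreated or the 75 min library (adjusted p = 0.098 and 0.075).

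Cdt1, the helicase loader that geminin binds, was called in footprints, at -0.42 ± 0.1 (edgeR adjusted p = 0.0067). Its input change was -0.38 (adjusted p = 0.087). Footprints were at 104, 112, 116, 121, 96.6, 94.5 and 79.5 CPM over 90 min and 54.7 CPM at 16 h. The footprint call was lost without the 90 min library (adjusted p = 0.13) and with a straight line in place of the curve (adjusted p = 0.094).

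Orc1, the largest subunit of the origin recognition complex, went the other way. Its input level rose from 26.7 CPM to 35.6 at 15 min, 37.1 at 30 min, 39.9 at 45 min, 39.8 at 60 min, 40.6 at 75 min and 36.1 at 90 min, with 33.3 at 16 h. In footprints Orc1 was at 28.0, 33.7, 34.5, 47.5, 46.0, 46.1, 45.1 and 29.8 CPM. The untreated library was the lowest in each material. The fitted rise was 0.56 ± 0.12 in input (edgeR adjusted p = 0.013) and 0.76 ± 0.13 among footprints (adjusted p = 0.0039). Without the untreated library, with change measured from 15 min instead, the sizes were 0.20 (adjusted p = 0.44) and 0.53 (adjusted p = 0.064). DESeq2 gave an adjusted p of 0.093 in input, and a straight line in place of the curve gave 0.37 (adjusted p = 0.13). Orc6, another subunit, was not called in either material, though its input rise passed with a straight line (0.34) and without the 30 min library (0.29).

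Nucleotide supply genes also parted early. Rrm2, the small subunit of ribonucleotide reductase, was at 209, 219, 272, 301, 321, 304 and 312 CPM in input from 0 to 90 min and 105 CPM at 16 h. In footprints Rrm2 was at 422, 469, 523, 636, 681, 661 and 649 CPM, then 223 CPM. Of the 29-base stretches of its coding sequence, 83.1% were unique to Rrm2 and others were shared chiefly with Gm48455. The 45 to 90 min libraries were above all others and the 16 h library below all others. The rise was 0.65 ± 0.082 in input (edgeR adjusted p = 0.00055) and 0.71 ± 0.092 among footprints (adjusted p = 0.00061), and it was called under each of the 13 alternative settings in both materials. Its partner subunit Rrm1 was not called over 90 min.

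Tk1, the thymidine kinase that salvages thymidine, fell from 172 CPM in untreated input to 157, 152, 147, 136, 120 and 115 CPM over 90 min, and to 29.6 CPM at 16 h. In footprints Tk1 was at 227, 232, 238, 234, 209, 202 and 168 CPM, then 42.6 CPM. The input series was lower in each later library, while footprints stayed near the untreated level to 45 min. The early change was -0.58 ± 0.076 in input (edgeR adjusted p = 0.00077) and -0.41 ± 0.088 among footprints (adjusted p = 0.0067). The footprint call was lost without the 90 min library (adjusted p = 0.2).

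Further footprint calls had no matching input call. Rfc1, the largest subunit of the clamp loader, fell in footprints, with 179, 182, 166, 141, 132, 127 and 132 CPM over 90 min (-0.58 ± 0.1, edgeR adjusted p = 0.0041). Rpa2, a subunit of RPA, fell with 144, 140, 129, 124, 105, 114 and 102 CPM (-0.51 ± 0.095, adjusted p = 0.0077). Their input changes, -0.23 and -0.19, did not pass (adjusted p = 0.089 and 0.19). Slbp, which binds the stem-loop of histone mRNAs, rose by 0.37 ± 0.093 in footprints (adjusted p = 0.032), and Uhrf1, which reads hemimethylated DNA, by 0.34 ± 0.09 (adjusted p = 0.042). Each of those rises was lost under total-count scaling (adjusted p = 0.41 and 0.23) and without most of the single libraries, and that of Uhrf1 also with a straight line (adjusted p = 0.098). A call in 1 material does not show that the materials differ, and neither gene's density change passed its own test.

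**Figure D3:**
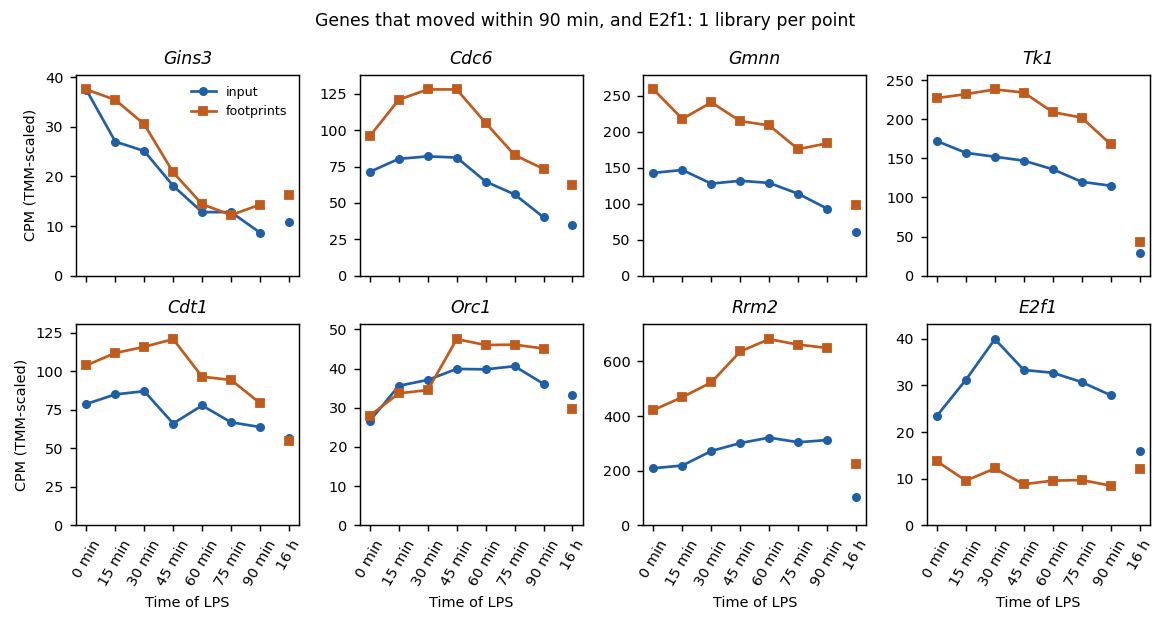
CPM of 8 DNA replication genes in each library against time of LPS, with 1 library per point, input as blue circles and footprints as orange squares; the 16 h point is set apart and not to scale on the time axis. Gins3 drops from 37.4 to 8.68 CPM in input, Orc1 and Rrm2 climb, and E2f1 input rises while its footprints do not.

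E2f1, the activator of many genes of the set, differed between input and footprints in the direction of its early values. Its input level was 23.5, 31.2, 39.9, 33.3, 32.7, 30.7 and 27.9 CPM from 0 to 90 min and 16.0 CPM at 16 h. Its footprints were at 13.7, 9.6, 12.2, 8.82, 9.59, 9.72 and 8.52 CPM, then 12.0 CPM. Every early input library was above untreated and every early footprint library below it, with footprint counts of 52 to 83 in those libraries. The input rise was 0.52 ± 0.15 (edgeR adjusted p = 0.047). It missed the threshold without any single early library. Without the untreated library the input change was measured from 15 min instead, and was -0.29 (adjusted p = 0.22). DESeq2 gave an adjusted p of 0.16 and a straight line 0.06 (adjusted p = 0.88). The footprint change was -0.52 ± 0.23 (adjusted p = 0.22). The log2 ratio of footprints to input was -0.57 in untreated cells, between -1.71 and -1.45 from 15 to 90 min, and -0.14 at 16 h. The fitted change of that ratio, -0.95 ± 0.25, did not pass (adjusted p = 0.22).

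Ribosome density, a gene's footprints divided by its input and set against the typical gene, was tested as an interaction in 1 model over all 16 libraries. Over 90 min, 0 of the 43 genes changed in either direction, where 1.11% of all tested genes rose and 0.136% fell. At an unadjusted p under 0.05 there were 4 genes, Pcna, Rfc1, Rpa2 and E2f1, all lower. At 16 h, 0 genes changed, against 0.304% of all tested genes higher and 0.0944% lower, and 5 genes had an unadjusted p under 0.05. Of these, Cdc6, Prim1, Prim2 and Fen1 were higher and Rfc1 lower. The share of all tested genes under the unadjusted cut is not given here, so neither count can be set against a background. DESeq2 likewise called 0 genes at either time. The median density change was 0.06 over 90 min and 0.09 at 16 h, against -0.05 and 0.07 over all tested genes. The largest early fall after E2f1 was that of Pcna, the sliding clamp, at -0.42 ± 0.12 (edgeR adjusted p = 0.17). Pcna passed without the 30 min library (-0.41, adjusted p = 0.041), and E2f1 passed at 16 h without the untreated library (1.34, adjusted p = 0.032). Changes in density of these sizes did not pass with 1 library of each kind per time point.

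At 16 h the replication genes fell together. In input, 42 of 43 fell and 0 rose against the fitted untreated level, where 27.7% of all tested genes fell and 27.6% rose (edgeR adjusted p at the 0.05 threshold). In footprints, 41 fell and 0 rose, against 24.2% and 25.9%, and all 41 also fell in input. The median change was -1.21 in input, 43.3% of untreated, and -1.19 in footprints, 43.9% of untreated. Over all tested genes the medians were -0.01 and 0. Of these falls, 41 in each material were called under each of the 12 alternative settings, total-count scaling included. The single 16 h library of each kind is assumed to scatter like the others.

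All 6 MCM helicase genes fell in both materials, with a median of -1.28 in input and -1.23 in footprints. Mcm5 was at 418 to 451 CPM in input over 0 to 90 min and 145 CPM at 16 h. Its change was -1.57 ± 0.092 (edgeR adjusted p = 1.1e-07). Mcm7 was at 367 to 400 CPM and then 133 CPM (-1.54 ± 0.093, adjusted p = 1.4e-07). Mcm4 fell least, by 0.96 on the log2 scale (-0.96 ± 0.083). For each of these genes the 7 earlier libraries lay far above the 16 h library and close to one another. Mcm7 shares coding stretches with Gm5487, with 60.9% of its 29-base stretches unique.

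Of the 5 licensing genes, 4 fell in each material, with a median of -0.87 in input. Gmnn changed by -1.21 ± 0.11 (edgeR adjusted p = 4.4e-06) and Cdc6 by -1.03 ± 0.11 (adjusted p = 1.5e-05). Cdt1 had the smallest called input fall of the set, -0.54 ± 0.15 (adjusted p = 0.01), and -0.94 ± 0.12 in footprints. The input call was lost against the fitted 90 min level (adjusted p = 0.42). Orc1 was the gene not called, with an input change of 0.26 ± 0.14 (adjusted p = 0.13) and a footprint change of 0.12 ± 0.16 (adjusted p = 0.57). Its input level at 16 h was 125% of untreated, with a counting interval of 102 to 153%.

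The 5 helicase activators fell in both materials, with a median of -1.37 in input and -1.03 in footprints. Gins3 changed by -1.77 ± 0.2 (edgeR adjusted p = 1.9e-05), Gins1 by -1.43 ± 0.17 and Cdc45, which joins GINS and MCM in the active helicase, by -0.90 ± 0.11. Cdc45 input was at 103 to 124 CPM to 90 min and 59.7 CPM at 16 h.

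All 8 polymerase and primase genes fell, with a median of -1.16 in input. Pole, the catalytic subunit of the leading-strand polymerase, was at 181 to 196 CPM in input to 90 min and 53.8 CPM at 16 h (-1.74 ± 0.092, edgeR adjusted p = 5.1e-08). Its footprints went from 145 to 172 CPM down to 41.7 CPM (-1.84 ± 0.12, adjusted p = 3.2e-07). Pola1, the catalytic subunit of the polymerase that works with primase, fell by 1.46 on the log2 scale in input and 1.79 in footprints (-1.46 ± 0.092 and -1.79 ± 0.16). The primase subunits Prim1 and Prim2 were at -1.39 ± 0.13 and -0.93 ± 0.13 in input and at -0.95 ± 0.14 and -0.53 ± 0.12 in footprints. Each lay less low in footprints than in input, a difference that did not pass the density test (adjusted p = 0.31 and 0.4).

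The clamp and its loader fell in 6 of 6 genes. Pcna was at 180 to 214 CPM in input to 90 min and 90.3 CPM at 16 h (-1.03 ± 0.093, edgeR adjusted p = 3.3e-06), and 61.1% of its coding stretches were unique, the rest shared mainly with Pcna-ps2. Among loader subunits the change ran from -1.80 ± 0.11 for Rfc5 to -0.56 ± 0.13 for Rfc3. Rfc3 remained at 43.9 CPM against 58.8 to 72.6 CPM earlier. Both RPA genes fell, Rpa1 by 1.05 and Rpa2 by 1.48 on the log2 scale (-1.05 ± 0.094 and -1.48 ± 0.12). The lagging-strand enzymes Fen1, the flap nuclease, and Lig1, the ligase, were at -1.41 ± 0.1 and -1.24 ± 0.12.

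Nucleotide supply had the lowest median of the roles with more than 1 gene, -1.52 in input and -1.54 in footprints. Tk1 had the largest fall of the 43 genes, -2.52 ± 0.11 in input (edgeR adjusted p = 8.4e-09) and -2.41 ± 0.12 among footprints (adjusted p = 2.2e-08). The measured level was 17.2% of untreated in input, with a counting interval of 14.6 to 20.0%, and 18.7% in footprints, with 16.5 to 21.2%. Tyms, the thymidylate synthase that supplies the same nucleotide from dUMP, changed by -1.64 ± 0.1 and Rrm1 by -1.41 ± 0.089. Of the Tyms coding stretches 80.3% were unique, the rest shared mainly with Tyms-ps. Rrm2, above untreated to 90 min, was at -0.94 ± 0.1 against untreated at 16 h.

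Of the chromatin partners, the assembly factor subunits Chaf1a and Chaf1b fell by 1.13 and 1.15 on the log2 scale in input (-1.13 ± 0.11 and -1.15 ± 0.11). Uhrf1 changed by -1.37 ± 0.098, and 69.2% of its coding stretches were unique, the rest shared mainly with Gm5648. Slbp fell least, by 0.61 (-0.61 ± 0.13, edgeR adjusted p = 0.0021). E2f1 fell in input (-0.65 ± 0.2, adjusted p = 0.018), a call DESeq2 did not make (adjusted p = 0.053), and was at -0.10 ± 0.25 in footprints (adjusted p = 0.77).

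**Figure D4:**
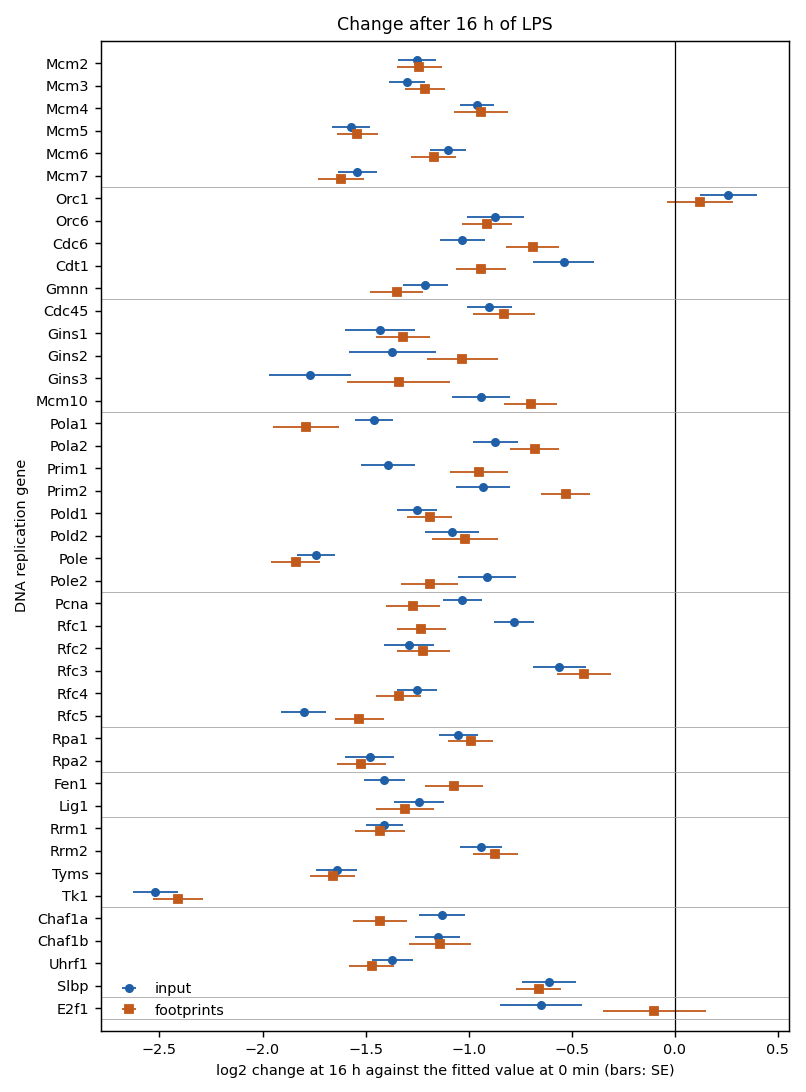
Log2 change at 16 h of LPS against the fitted untreated level for each of the 43 DNA replication genes, grouped by role, in input (blue circles) and footprints (orange squares), with bars of 1 SE. All genes other than Orc1 lie left of 0, with medians of -1.21 in input and -1.19 in footprints.

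Set against the fitted 90 min level instead, 39 of the 43 genes were lower at 16 h in input and 40 in footprints, where 26.6% and 25.0% of all tested genes were lower. None was higher, where 25.8% of all tested genes were higher in input and 25.7% in footprints. Most genes were not called over 90 min and were low at 16 h. Rrm2 rose and then fell by 1.57 on the log2 scale in input and 1.56 in footprints, more than against the untreated level. For Gins3 and Cdc6 the difference between 16 h and 90 min did not pass. The changes were 0.25 (edgeR adjusted p = 0.41) and -0.20 (adjusted p = 0.17) in input, and 0.45 (adjusted p = 0.21) and -0.14 (adjusted p = 0.41) in footprints. Cdt1 input did not pass either (-0.16, adjusted p = 0.42), while its footprints did (-0.52, adjusted p = 0.0043). Orc1 footprints were lower at 16 h than at 90 min (-0.60 ± 0.16, adjusted p = 0.0074), while its input was at -0.12 (adjusted p = 0.48).

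Genes with an E2F-type match in the promoter window had a median input change of -1.25 at 16 h (14 genes), and those without had -1.10 (22 genes). The genes with a match included Gins3, Cdc6 and Cdt1, whose footprints fell over 90 min, and also Orc1 and Uhrf1, whose footprints rose. Among those without, footprints of Tk1, Rfc1 and Rpa2 fell and those of Rrm2 and Slbp rose. Rrm2 and Tk1 had no match in the window searched. E2f1 is counted among the genes without a match, but its window began within its coding sequence and missed the sequence before the coding start.

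Averaged over the 8 time points, most replication mRNAs carried more footprints per input count than the typical gene. This density level was tested with a time-point block and a material term, without time terms. The 8 time points of the LPS course thus stood in for repeats. The density level was higher for 33 genes and lower for 5, where 43.7% of all tested genes were higher and 41.5% lower (edgeR adjusted p at 0.05). The median was 0.50, or 141% of the typical gene, against 0.02 over all tested genes. Rrm2 stood highest at 1.28 ± 0.04, followed by Gins1 at 1.06 ± 0.052, Lig1 at 1.00 ± 0.037, Gmnn at 0.97 ± 0.047 and Slbp at 0.95 ± 0.04. Nucleotide supply genes had a median of 0.85, licensing genes 0.62 and the MCM genes 0.50. Polymerase and primase genes were near the typical gene, at 0.04. The genes below it were E2f1 at -1.24 ± 0.14, Rfc1 at -0.50 ± 0.05, Pold1, Cdc45 and Chaf1a. With total-count scaling, which set the median of all genes to -0.19, 28 genes were higher and 11 lower, and over all genes 3084 were higher and 4809 lower in place of 4166 and 3950. Under each of 13 alternative settings 24 genes stayed higher, and Rfc1 and E2f1 stayed lower.

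Footprints come mainly from coding sequence and input from the whole transcript, so the coding share of each transcript was set beside this ratio, and its part in the result was not tested beyond that. The median coding share was 69.1% in the 43 genes and 54.9% over 9135 tested genes with a coding model. Density level and coding share had a Spearman correlation of -0.26 over the 43 genes and -0.19 over the 9135, a description across genes that share libraries. Per kilobase of coding sequence, untreated footprints were densest on Gmnn (419 CPM per kb), Rrm2 (361), Tk1 (325), Pcna (321) and Slbp (313). They were sparsest on E2f1 (10.6), Orc1 (11.1) and Pole (21.2). Gmnn and E2f1 are thus the ends of the set on a length-corrected footprint scale.

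**Figure D5:**
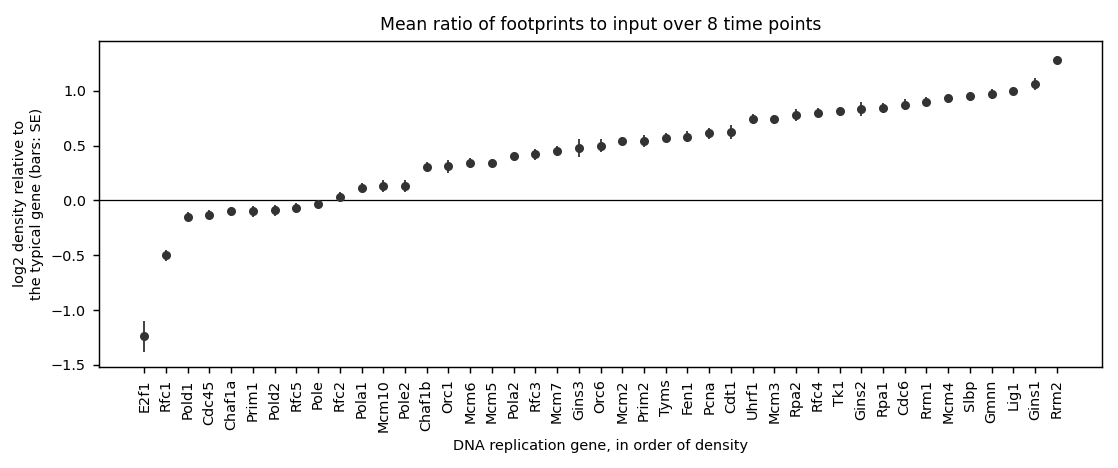
Mean log2 ratio of footprints to input over the 8 time points for the 43 DNA replication genes, relative to the typical gene (0), with bars of 1 SE and genes in order. E2f1 is lowest at -1.24 and Rrm2 highest at 1.28.

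A further 50 genes of the replication pathway, listed by textbook role, were all tested. At 16 h, 37 fell and 5 rose in input, with a median of -0.88. In footprints 37 fell and 6 rose, with a median of -0.90. Over all tested genes 27.7% fell and 27.6% rose in input, and 24.2% and 25.9% in footprints. The furthest falls in input were Dut, which removes dUTP (-2.08 ± 0.1, edgeR adjusted p = 2.5e-08), Pclaf, a PCNA-binding factor (-2.04 ± 0.11, adjusted p = 6.5e-08), and Asf1b, a histone chaperone (-1.99 ± 0.15, adjusted p = 9e-07). The genes that rose in input were Samhd1 (1.55 ± 0.096, adjusted p = 1.7e-07), Mcm9 (1.40 ± 0.17), Rrm2b (0.73 ± 0.2), Dck (0.66 ± 0.12) and Orc4 (0.34 ± 0.12), and Pold4 joined them in footprints (1.09 ± 0.4, adjusted p = 0.04). Samhd1 degrades deoxynucleotides, Rrm2b is the other small subunit of ribonucleotide reductase and Dck salvages deoxycytidine. Over 90 min the input test called 3 of the 50 higher and 7 lower, and the footprint test 2 higher and 6 lower. All tested genes were called in 14.6% and 11.4% of cases in input and in 12.2% and 8.3% in footprints, higher and lower in turn, beside 6% and 14%, and 4% and 12%, of this list. The share of these genes with an E2F-type match was 27.5% of the 40 with a window.

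The E2F and pocket protein list held 12 other genes, of which 10 fell at 16 h in each material and 0 rose, where 27.7% of all tested genes fell in input and 24.2% in footprints. Tfdp2, a dimerisation partner of E2F proteins, changed most in input (-2.30 ± 0.18, edgeR adjusted p = 1.2e-06). Over 90 min the input test called 2 higher and 4 lower, and the footprint test 2 higher and 5 lower, against backgrounds of 14.6% and 11.4% in input and 12.2% and 8.3% in footprints. All 22 mitosis genes listed fell at 16 h in both materials, with medians of -1.96 and -1.77, further than the -1.21 and -1.19 of the replication genes, a difference between lists that was not tested. Cenpf (-2.53 ± 0.11), Mki67 (-2.49 ± 0.13) and Kif11 (-2.33 ± 0.11) fell most in input. An E2F-type match was present in 5.56% of the 18 mitosis genes with a window.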

How the data were processed

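Whole-number counts per gene were deposited by the authors for 8 input and 8 footprint libraries, with totals of 6702930 to 6702932. The deposited table also holds these counts divided by 1 size factor per library (normalised signal), per the file headers made with DESeq2, used here as a check. Bowtie 0.12.8, DESeq2 1.18.1 and build mm10 appear in the submitters' processing notes. The counted features, strand use, treatment of multi-mapping reads and any drawing to a common total were not given in the sources used here.

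A gene was kept if it had 10 or more counts in 4 or more libraries of each material (9529 of 13832). edgeR 4.0.16 (R 4.3.3, limma 3.58.1) quasi-likelihood tests used TMM scaling within each material, or over all 16 libraries for density. Changes over time were fitted with minutes, minutes squared and a 16 h term, and with a time-point block for density. The density level was fitted with the block and a material term alone. Fits were tested on simulated data. Alternatives were total-count scaling, DESeq2 1.42.0, its size factors, no filter, a linear curve, no block and leaving out each library. Counting intervals are exact, at 95%, and cover counting error. Coding lengths came from GENCODE M21, and promoter sequences from RefSeq (GRCm38.p6). Every listed gene could be named, and of the other lists those that moved most. Members and lists were chosen with earlier results of these data known.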

Additional observations from a re-analysis of the deposited data

How the results depend on the processing

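The 16 h falls kept their direction and call in 41 genes of each material under every planned setting, and leaving out 1 library gave 42 lower in input and 41 in footprints throughout. Early counts moved more. Under DESeq2, 1 gene rose over 90 min in input in place of 3, and 1054 of all tested genes rose in place of 1390. Total-count scaling gave 12 lower in input, 2 higher and 20 lower in footprints and 1 lower in density over 90 min. Leaving out 1 time point gave 2 to 6 higher in input and 1 to 4 higher and 4 to 7 lower in footprints. In density it gave 0 to 1 lower over 90 min and 0 to 1 higher at 16 h. Calls over all tested genes moved as well, from 958 to 1589 higher in input. In footprints they ran from 825 to 1374 higher and 458 to 904 lower. In density they ran from 0 to 134 lower over 90 min and 17 to 79 higher at 16 h. The density level was lower for 11 genes under total-count scaling, 3 without the count filter and 2 without the time-point block. Cdc6 footprints over 90 min ranged from -0.83 to 0.42 with 1 library left out, reversing without 90 min. Gins3 input at 16 h was 0.25 against the 90 min baseline, an alternative added after seeing the data. The cause was not tested. Total-count scaling also moved the calls over all genes at 16 h from 2632 higher and 2637 lower to 2110 and 3411 in input, and from 2469 and 2307 to 2068 and 2812 in footprints. Both materials of each time point share a lysate and were paired as a time-point block in the density tests. Without that block the density level was called higher for 3204 of all genes and lower for 3207, in place of 4166 and 3950. No block over replicate numbers could be fitted, since each group holds 1 library. Depth limits E2f1 and Gins3 most, with lowest counts of 52 and 56.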
